A study of Mus musculus with 6 samples.

Results

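Rec8 and its relatives among the cohesin genes were followed in mouse cerebellum labelled Crebbp knockout or Crebbp wild type. The set held 10 genes, named as Rec8, Stag3, Smc1b, Rad21l and Sycp3 of meiotic chromosomes and Smc1a, Smc3, Rad21, Stag1 and Stag2 of the mitotic complex. 9 of the 10 had a probe set annotated to that gene alone, out of 22180 genes tested, and Sycp3 was not analysed here because its probe set is also annotated to another gene. 3 arrays labelled Crebbp knockout (Math1Cre::CrebbpFl/Fl) were compared with 3 arrays labelled Crebbp wild type (Math1Cre). All 6 samples were whole cerebellum at postnatal day 7, and Math1Cre was carried by both groups. Math1Cre drives recombination in granule neuron precursors and their relatives, so the cerebellum of a knockout animal keeps other cells outside that lineage. Each measured member had 1 probe set annotated to that gene alone, so no other such probe set reads it. Rec8 was selected on its log2 change, which was among the largest rises in this same comparison. Its values are therefore a description with no test, and the other members were chosen for their known place beside it.

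Cohesin is a ring that holds sister chromatids together and folds chromosomes into loops. The ring is built from SMC1 and SMC3, is closed by a kleisin subunit, and carries a STAG protein. In dividing and resting body cells the kleisin is RAD21 and the STAG protein is STAG1 or STAG2. In germ cells entering meiosis, REC8 or RAD21L takes the kleisin place, STAG3 the STAG place and SMC1B the place of SMC1A, while SYCP3 forms the chromosome axis beside them. CREBBP, the acetyltransferase whose gene is targeted in the knockout, is a coactivator of CREB and of many other transcription factors.

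The sequence before Rec8 is shown because this gene carried the difference described here, with that of Smc1b, its meiotic SMC partner, and of Smc3, a partner in both kinds of ring. Each is the part of the RefSeq promoter window (250 bases before to 50 after a transcript start, GRCm38.p6) that lies before the outermost annotated start of the gene. Capitals mark CCAAT boxes, read as CCAAT or its reverse complement ATTGG.
Rec8, chr14:55617916-55618001, plus strand: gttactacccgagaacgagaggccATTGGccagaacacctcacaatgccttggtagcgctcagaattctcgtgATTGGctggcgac
Smc1b, chr15:85131958-85132207, minus strand: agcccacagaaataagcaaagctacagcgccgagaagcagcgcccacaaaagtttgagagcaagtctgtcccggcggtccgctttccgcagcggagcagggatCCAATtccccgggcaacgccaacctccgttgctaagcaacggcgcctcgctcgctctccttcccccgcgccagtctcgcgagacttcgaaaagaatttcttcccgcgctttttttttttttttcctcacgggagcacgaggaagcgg
Smc3, chr19:53600146-53600395, plus strand: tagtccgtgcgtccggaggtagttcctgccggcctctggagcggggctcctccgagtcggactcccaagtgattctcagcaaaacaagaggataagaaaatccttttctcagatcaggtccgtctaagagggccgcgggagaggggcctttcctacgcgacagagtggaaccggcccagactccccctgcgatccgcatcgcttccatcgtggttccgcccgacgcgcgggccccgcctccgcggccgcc

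Promoter windows were found for 8 of the 10 genes, and not for Rad21 and Stag2. The full window of 300 bases of Rec8 held 3 CCAAT boxes on both strands together, and 3.37% of all 32851 windows held 3 or more. The windows of Rad21l, Stag3, Stag1, Sycp3, Smc1b and Smc1a held 1 each, and that of Smc3 held 0, while 37.4% of all windows held at least 1. The E-box CACGTG was present in the windows of Stag3 and Sycp3, and in 7.15% of all windows. The CREB site TGACGTCA was found in 0 of the 8 windows (1.79% of all windows). Its shorter core TGACG, read on both strands and overlapping the full site, was also found in 0 of the 8 (20.8% of all windows). These matches describe letters in a window and do not show binding.

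Rec8 was higher on every knockout array. Its log2 expression value was 8.03, 8.06 and 8.57 on the knockout arrays, against 6.70, 6.99 and 6.80 on the wild-type arrays. The groups lay more than 1 log2 unit apart at their closest, with knockout replicate 3 standing above the other knockout arrays. The means were 8.22 ± 0.30 in knockout and 6.83 ± 0.15 in wild type (SD, n = 3 each). That is a log2 change of 1.39 (SE 0.14, 95% confidence interval 1.08 to 1.70), or 2.62-fold with an interval of 2.11 to 3.25. Ordered by rise, Rec8 stood in place 14 of 22180 genes. The wild-type values lay under the median of all probe sets and arrays, 7.27, and the knockout values above it. Rec8 was chosen for this rise, so the fold and its interval may lie too high. The deposited values carry no detection call, so the size of the fold is uncertain. In whole tissue, a change in the number of cells of a type and a change in RNA per cell cannot be told apart.

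**Figure D1:**
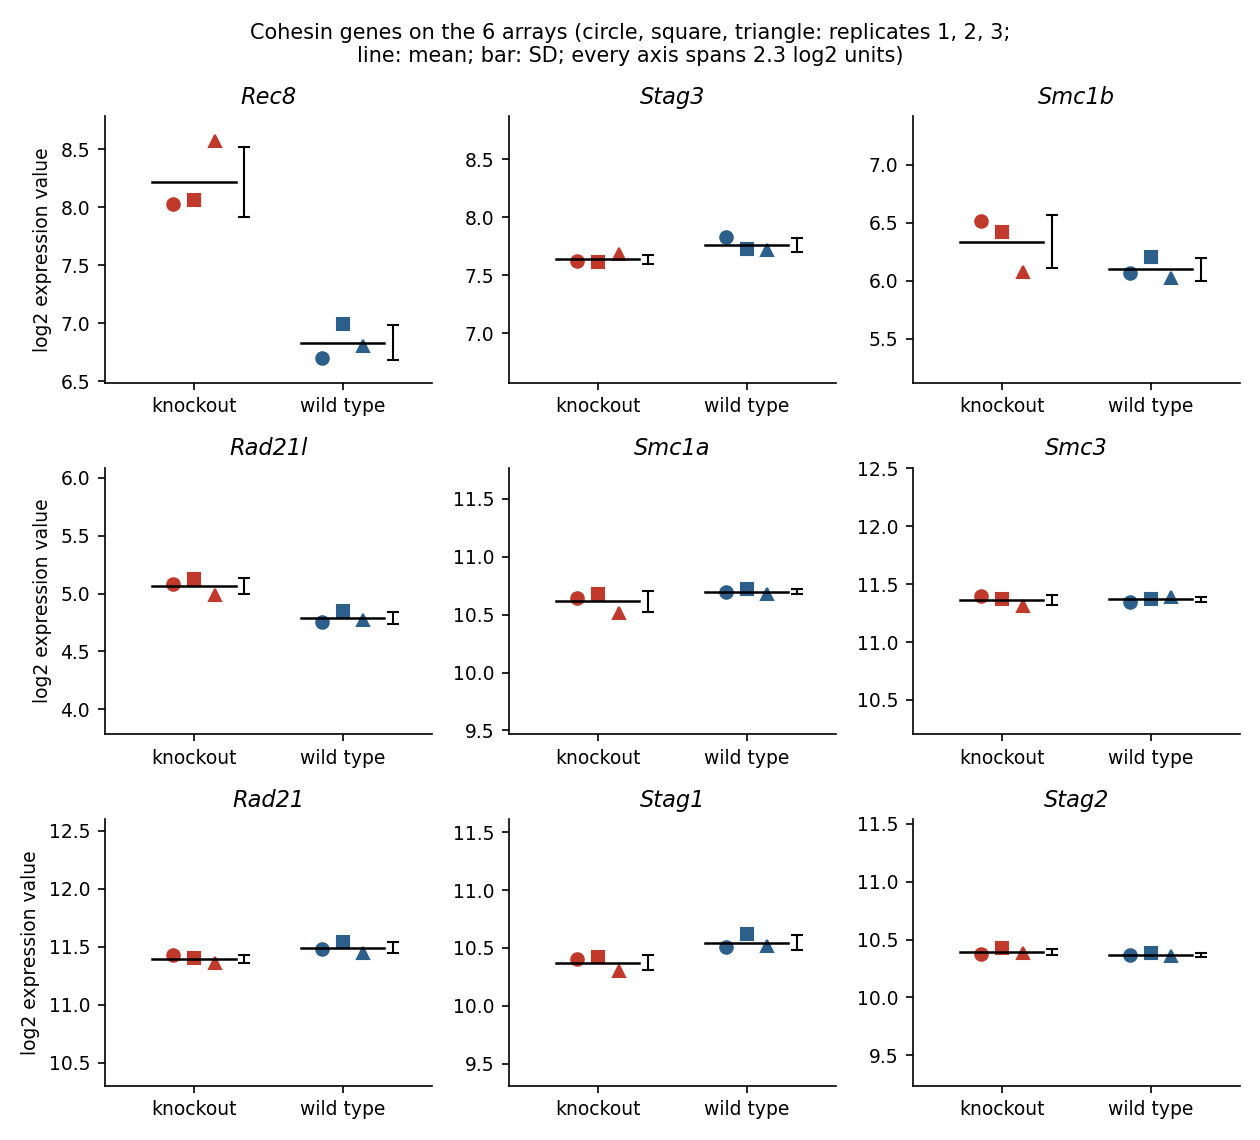
Log2 expression values of the 9 measured cohesin genes on each array, knockout at left and wild type at right of each panel. Symbols are replicates 1, 2 and 3, lines are means, bars are SD, and every panel spans the same number of log2 units, so that the gap between groups in Rec8 can be set beside the small gaps in the other genes.

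The other measured meiotic members did not pass the threshold. The threshold, here and below, was a limma p of 0.05 after Benjamini-Hochberg adjustment over all 22180 genes. With this rule 6.67% of all genes passed: 2.72% rose and 3.94% fell. Of the 8 other measured members, 0 rose and 0 fell in limma, and 2 had an unadjusted p under 0.05. That share, here and in the lists below, is to be read against 20.4% of all genes. Counting Rec8, 1 of 9 rose, and nothing is read from that count because Rec8 was chosen for it.

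Rad21l, the meiotic kleisin most like RAD21, read 5.09, 5.12 and 4.99 in knockout and 4.75, 4.85 and 4.77 in wild type. The knockout values all lay above the wild-type values, as they did for 11.8% of all genes. The log2 change of 0.28 (SE 0.11) did not pass (adjusted p = 0.181). Its mean over the arrays, 4.93, was under the 25th percentile of all probe sets, 6.02, so this small difference lies in the dimmest part of the table.

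Smc1b, the meiotic form of SMC1, read 6.52, 6.42 and 6.08 in knockout and 6.07, 6.21 and 6.02 in wild type. The groups overlapped, since knockout replicate 3, which had the highest Rec8 value, had a Smc1b value among those of wild type. Its log2 change was 0.24 (SE 0.12, limma adjusted p = 0.328), and with 1 array left out it ran from 0.15 without knockout replicate 1 to 0.37 without knockout replicate 3, passing in none of these fits.

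Stag3, the meiotic STAG protein, read 7.62, 7.61 and 7.68 in knockout and 7.83, 7.73 and 7.72 in wild type. Every knockout value was below every wild-type value, as for 13.1% of all genes. Its log2 change was -0.12 (SE 0.07, limma adjusted p = 0.379). The interval, -0.27 to 0.03, holds no rise of the size seen for Rec8.

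The mitotic subunits had bright probe sets and narrow spreads, and 0 of 5 passed in limma, with 1 at an unadjusted p under 0.05. Rad21, the kleisin of body cells, read 11.43, 11.40 and 11.36 in knockout and 11.48, 11.54 and 11.45 in wild type. Its groups did not overlap, and the log2 change was -0.10 (SE 0.04, interval -0.20 to 0.003, adjusted p = 0.262). Stag1 read 10.40, 10.42 and 10.30 in knockout and 10.51, 10.62 and 10.51 in wild type. Its groups did not overlap either, and its change of -0.17 (SE 0.05, interval -0.29 to -0.05) was the nearest to the threshold among the mitotic subunits (adjusted p = 0.0894).

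Stag2, the other STAG protein of body cells, read 10.38, 10.42 and 10.38 in knockout and 10.36, 10.38 and 10.35 in wild type. Its groups overlapped, and its log2 change was 0.03 (SE 0.04, interval -0.07 to 0.12, limma adjusted p = 0.809). Smc3, the subunit shared by mitotic and meiotic rings, read 11.40, 11.37 and 11.31 in knockout and 11.35, 11.37 and 11.39 in wild type. Its log2 change was -0.01 (SE 0.04, interval -0.10 to 0.09, limma adjusted p = 0.945).

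Smc1a, the SMC1 of body cells, read 10.65, 10.68 and 10.51 in knockout and 10.70, 10.72 and 10.68 in wild type. Its groups overlapped, and its log2 change was -0.09 (SE 0.05, limma adjusted p = 0.425). Smc1a and Stag2 lie on the X chromosome, and the arrays came from animals of both sexes by their Xist values, which were 5.79, 6.45 and 12.30 in knockout and 12.27, 12.32 and 5.74 in wild type. Xist was high on knockout replicate 3 and on wild-type replicates 1 and 2, so the sexes were not evenly spread over the groups. With Xist as a covariate the log2 changes were -0.10 for Smc1a and 0.03 for Stag2, and neither passed. In the same fit the log2 change of Rec8 was 1.47.

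**Figure D2:**
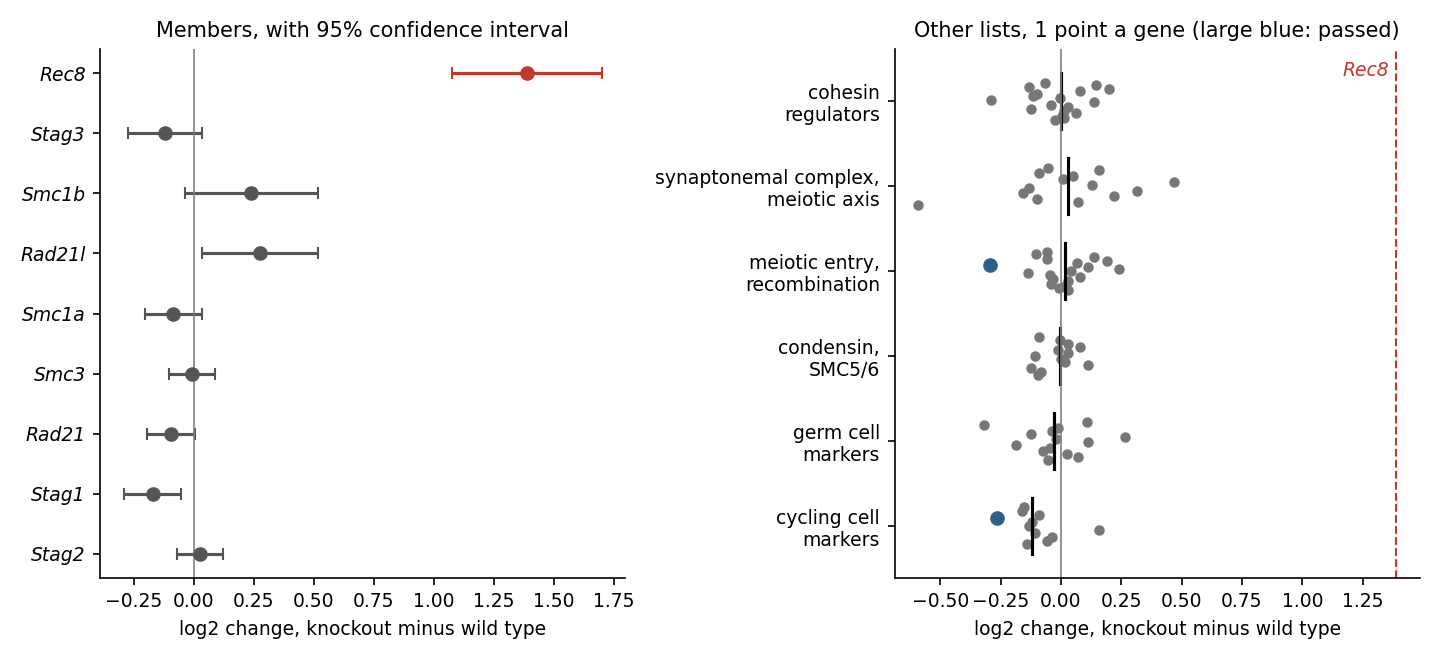
Left, log2 change (knockout minus wild type) of the 9 measured cohesin genes with 95% confidence intervals, Rec8 in red at 1.39 and the other members between -0.17 and 0.28. Right, log2 changes of the genes of 6 other lists, 1 point a gene, with the list median as a black line and the Rec8 change as a dashed line, which lies to the right of every point.

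Genes for proteins that load, lock and open the ring did not pass the threshold. Of 18 measured regulators, 0 rose and 0 fell in limma. An unadjusted p under 0.05 was found for 5 of them, against 20.4% of all genes. The median log2 change was 0.0002, against -0.003 over all genes. Ppp2r5a, a regulatory subunit of the phosphatase PP2A, read 10.57, 10.63 and 10.42 in knockout and 10.33, 10.41 and 10.29 in wild type, groups that did not overlap (log2 change 0.20, SE 0.06, adjusted p = 0.0898). It passed without knockout replicate 3 (log2 change 0.26, adjusted p = 0.0258), and with the replicate number as a block (adjusted p = 0.0308). Sgo1, shugoshin, which protects centromeric cohesin in dividing cells, read 8.85, 8.96 and 8.50 in knockout and 9.09, 9.03 and 9.06 in wild type (log2 change -0.29, SE 0.10, adjusted p = 0.133). The other regulators, among them the loader genes Nipbl and Mau2, the release factor gene Wapl and the separase gene Espl1, had log2 changes from -0.13 for Ctcf to 0.14 for Ddx11.

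The synaptonemal complex, the zipper between paired meiotic chromosomes, and the meiotic axis were represented by 14 measured genes. Of these 0 rose and 0 fell in limma, and 3 had an unadjusted p under 0.05. The median log2 change was 0.03, and 6 of the 14 had a mean under the 25th percentile of all probe sets. Syce2, a protein of the central element, read 8.36, 8.45 and 8.35 in knockout and 8.21, 8.13 and 8.16 in wild type, with no overlap (log2 change 0.22, SE 0.06, adjusted p = 0.0663). 4930447C04Rik, known as Six6os1 and part of the same element, read 6.37, 6.22 and 6.76 in knockout and 5.81, 6.21 and 5.92 in wild type (log2 change 0.47, SE 0.15, adjusted p = 0.108). Its groups were apart by a narrow gap, with knockout replicate 2 next to wild-type replicate 2. Its change was 0.15 without the arrays with Ttr above 10, described below, and 0.31 without knockout replicate 3.

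Sycp1, the transverse filament of the zipper, is named after its values were seen. It read 5.93, 5.36 and 7.09 in knockout and 6.96, 6.58 and 6.61 in wild type, and knockout replicate 3 was the highest array of all. Its log2 change was -0.59 (SE 0.34, limma adjusted p = 0.386). Without knockout replicate 3 the change was -1.07 (adjusted p = 0.00994), so that array decides whether Sycp1 is called lower.

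Genes of meiotic entry and recombination were represented by 19 measured genes, of which 0 rose and 1 fell. The median log2 change was 0.02, and 8 of the 19 had a mean under the 25th percentile of all probe sets. Msh5, a MutS protein of meiotic crossing over, read 7.03, 6.98 and 6.95 in knockout and 7.24, 7.32 and 7.27 in wild type. It fell, with a log2 change of -0.29 (SE 0.07, limma adjusted p = 0.0437), opposite in direction to Rec8. The call was lost whichever array was left out, with changes from -0.32 to -0.27. It was also lost with the replicate number as a block (adjusted p = 0.0716). Dmc1, the meiotic strand exchange protein, read 7.42, 7.25 and 7.41 in knockout and 7.07, 7.15 and 7.14 in wild type (log2 change 0.24, SE 0.08, adjusted p = 0.109), and changed by 0.11 in the fit without the high-Ttr arrays. Iho1, an axis-bound factor needed for meiotic breaks, had a log2 change of -0.14 (adjusted p = 0.506). The entry factor gene Stra8 changed by 0.03 (SE 0.11) and Spo11, the enzyme that makes the breaks, by -0.04 (SE 0.14), neither past the threshold.

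Of the condensin and SMC5/6 genes, whose complexes are built on the same kind of SMC ring, 13 were measured and 0 passed in limma, with 1 at an unadjusted p under 0.05. Their log2 changes ran from -0.12 for Ncapd2 (adjusted p = 0.275) to 0.11 for Ncapd3 (adjusted p = 0.178), with a median of -0.003.

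The genes beside Rec8 on chromosome 14 did not pass the threshold. Of the 10 annotated genes on each side, 18 were measured, and of these 0 rose and 0 fell in limma. An unadjusted p under 0.05 was found for 3 of the 18, against 20.4% of all genes. The median log2 change of the 18 was 0.05, against -0.003 over all genes. Of these changes 15 were above 0 and 3 below, while 50.9% of all genes had a change below 0. Irf9, the adjacent gene on one side and the DNA-binding subunit of the interferon-activated complex ISGF3, read 8.78, 8.59 and 8.73 in knockout and 8.37, 8.57 and 8.37 in wild type. Its groups were apart by a narrow gap (log2 change 0.26, SE 0.08, adjusted p = 0.0723). It passed without knockout replicate 2 (log2 change 0.32, adjusted p = 0.0490), and changed by 0.12 once the arrays with high Ttr, described below, were left out. Ipo4, an importin gene and the adjacent gene on the other side, read 9.83, 9.84 and 9.89 in knockout and 9.78, 9.73 and 9.64 in wild type (log2 change 0.13, SE 0.05, adjusted p = 0.179). Another probe set of Ipo4 changed by -0.02 (adjusted p = 0.918).

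**Figure D3:**
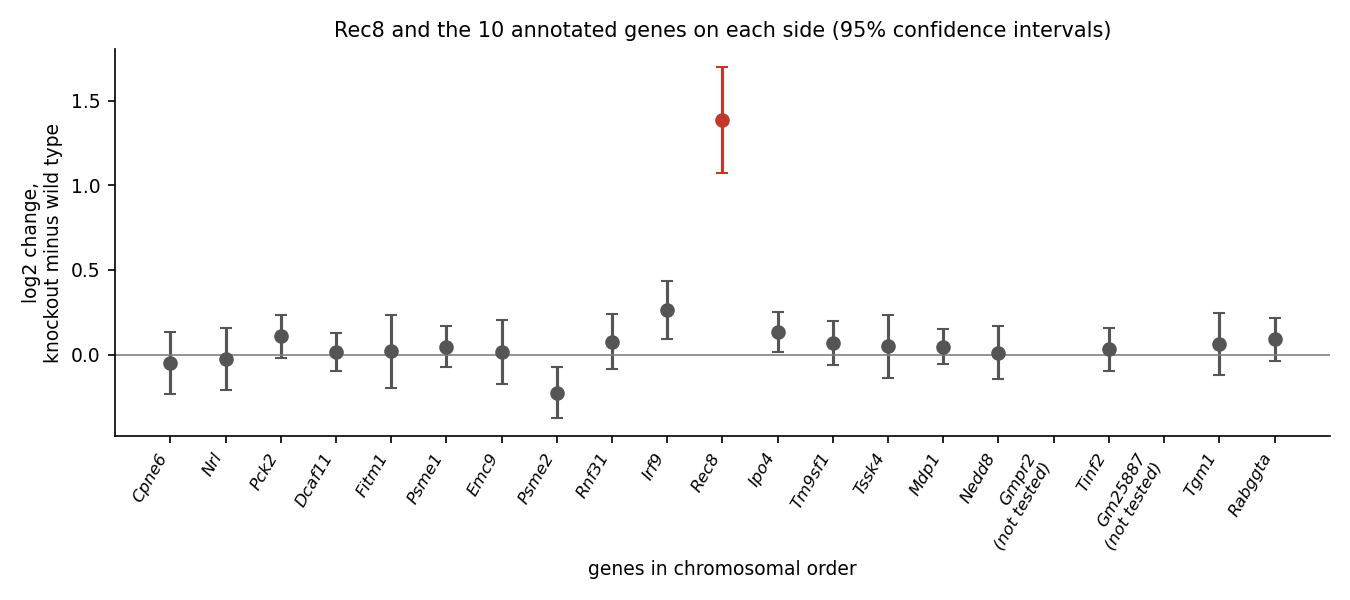
Log2 change (knockout minus wild type, with 95% confidence intervals) of Rec8, in red, and of the 10 annotated genes on each side in chromosomal order. Rec8 lies at 1.39 and the 18 measured neighbours between -0.22 and 0.26.

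The genes with values most like those of Rec8 over the 6 arrays, leaving out predicted and small RNA genes, were Fbln5 (Pearson's r = 0.998), Osmr (0.996), As3mt (0.996), Mapkapk3 (0.994) and Dhdh (0.994). They were taken from 18819 genes, of which 169 had an r of at least 0.95, and much of this likeness is the difference between the groups that they share. Fbln5 encodes fibulin 5 of elastic fibres, and read 8.50, 8.48 and 8.60 in knockout and 8.16, 8.22 and 8.16 in wild type, a log2 change of 0.35 (SE 0.06). Osmr, the oncostatin M receptor, had a log2 change of 0.38, As3mt, an arsenic methyltransferase, one of 0.56, the kinase gene Mapkapk3 one of 0.44 and Dhdh, a dihydrodiol dehydrogenase, one of 0.41. These changes were smaller than that of Rec8, but the order of the arrays was close, with knockout replicate 3 highest in each. In the fit without the arrays with Ttr above 10, described below, the changes of the 5 ran from 0.29 for Fbln5 to 0.46 for As3mt. That fit has 1 knockout array, so its calls are not read. After removal of the group means, the values most like Rec8 were those of Adam12 (r = 0.999), Olfr301 (0.998) and F10 (0.997), whose log2 changes of 0.06, 0.01 and -0.24 did not pass. Olfr301 averaged 3.43 over the arrays, under the 25th percentile of all probe sets, 6.02. With 3 arrays a group, many genes reach such an r, so it is a description only.

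Markers of other cells were read on the same arrays. Among 9 measured cerebellum markers, 8 averaged above 8.86, the 75th percentile of the whole table, and Atoh1, the factor of the precursor state, was at 10.34, 10.12 and 10.14 in knockout against 9.68, 9.74 and 9.64 in wild type. It rose (log2 change 0.52, SE 0.06, limma adjusted p = 0.00191), as did Gdf10, while Pax6, Zic1, Zic2 and Neurod1 fell. The log2 changes were 0.20 for Gdf10, -0.30 for Pax6, -0.24 for Zic1, -0.25 for Zic2 and -0.51 for Neurod1. The fit without the arrays with Ttr above 10, described with the choroid plexus, left 1 knockout array against 2 wild-type arrays. It is therefore read by its changes only. The changes there were 0.44 for Atoh1, 0.25 for Gdf10, -0.33 for Pax6, -0.23 for Zic1, -0.25 for Zic2 and -0.35 for Neurod1. Some calls were lost in fits that kept all 6 arrays. A prior variance without a trend lost those of Gdf10, Zic1, Zic2 and Neurod1. Xist as a covariate lost those of Gdf10 and Zic2, and centring each array on its median that of Gdf10. Without wild-type replicate 1, the calls of Gdf10, Zic1, Zic2 and Neurod1 were lost, and without knockout replicate 1 those of Gdf10, Zic2 and Neurod1. Gdf10 also lost its call without knockout replicate 2 or wild-type replicate 3, Zic2 without knockout replicate 2 or 3 or wild-type replicate 2, and Neurod1 without wild-type replicate 2. Calb1, a marker of Purkinje cells, had a log2 change of 0.16 (adjusted p = 0.0577), and passed with the replicate number as a block (adjusted p = 0.0320) and with dim genes left out (adjusted p = 0.0496). En2, a homeobox gene of the cerebellum, had one of -0.27 (adjusted p = 0.145). Crebbp itself was at 11.46, 11.42 and 11.32 in knockout and 11.96, 11.99 and 11.90 in wild type, so every array lay on the side of its label (log2 change -0.56, SE 0.05, adjusted p = 0.000354). Array medians ran from 7.25 to 7.29.

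Germ cell markers lay at like levels in both groups. Of 14 measured, 0 rose and 0 fell in limma, 1 had an unadjusted p under 0.05, and 5 had a mean under the 25th percentile of all probe sets. Their mean log2 value was 6.15 to 6.22 on the knockout arrays and 6.15 to 6.28 on the wild-type arrays, overlapping ranges. The smallest p-values were those of Nanos2 (log2 change -0.32, adjusted p = 0.0735) and Zpbp (0.27, adjusted p = 0.286). The germ cell gene Ddx4 read 5.64, 5.49 and 5.39 in knockout and 5.39, 5.77 and 5.53 in wild type.

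Choroid plexus, an epithelium that can come along at dissection, differed between arrays. Ttr, its most abundant transcript, read 13.77, 9.19 and 13.92 in knockout and 12.30, 8.08 and 8.91 in wild type. The mean over 7 measured markers was 7.39 to 9.81 in knockout and 7.35 to 8.17 in wild type, and 0 of the 7 passed in limma, with 4 at an unadjusted p under 0.05, among them Aqp1 (log2 change 0.88) and Slc4a5 (1.55). Without knockout replicate 2, 6 of the 7 rose, a count that depends on which array was left out. That array had the lowest marker mean of the knockout arrays, 7.39 against 9.17 and 9.81. That fit therefore cannot tell a knockout effect from uneven carry-over of the epithelium. Its log2 changes were 1.36 for Aqp1 (adjusted p = 0.00200), 2.43 for Slc4a5 (adjusted p = 0.000946) and 1.59 for Clic6. They were 2.11 for Kl, 1.05 for Folr1 and 4.08 for Ttr (adjusted p = 0.0379). Ttr also passed with the replicate number as a block (log2 change 2.53, adjusted p = 0.0442). Knockout replicate 3 had the highest marker mean and the highest Rec8 value. On knockout replicate 2 the marker mean was 7.39, within the wild-type range, and Rec8 was at 8.06. The part of choroid plexus in the Rec8 values was not tested. Without the 3 arrays with Ttr above 10, which leaves 1 knockout array against 2 wild-type arrays and assumes that the lone array varies like the others, the log2 change of Rec8 was 1.17. Among the other members the changes in that fit were -0.15 for Stag1, 0.31 for Rad21l and -0.02 for Smc1a.

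**Figure D4:**
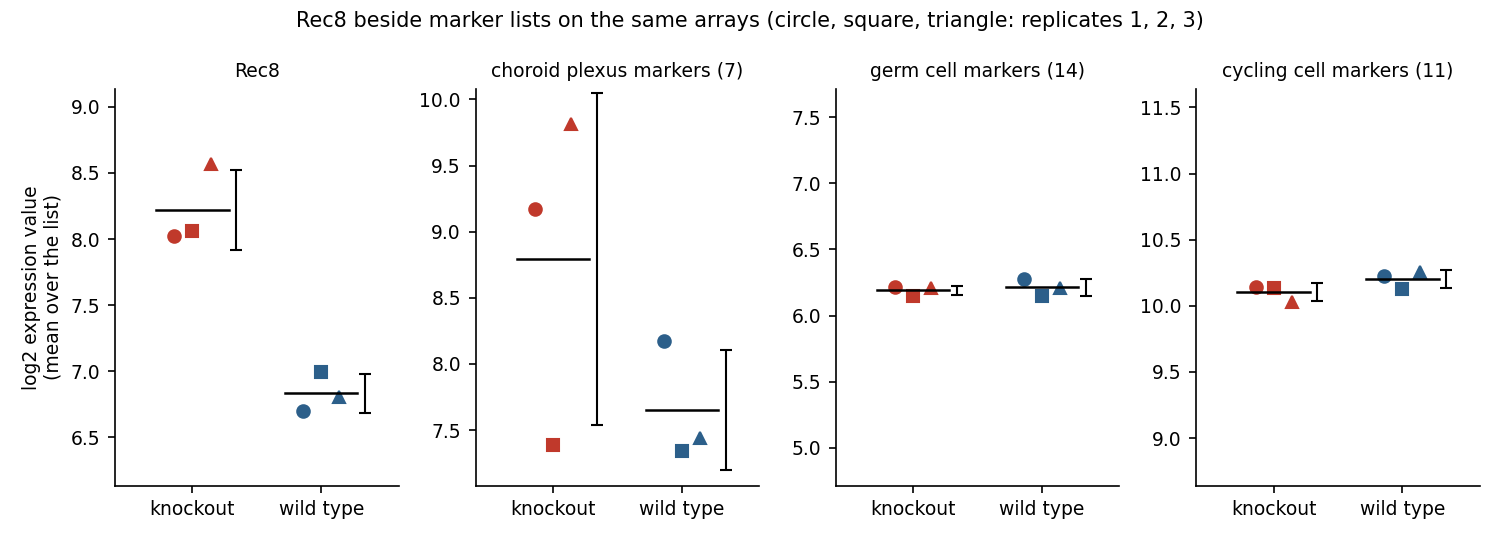
Log2 value of Rec8 and mean log2 value of the choroid plexus, germ cell and cycling cell markers on each array, knockout at left and wild type at right, with means and SD. Rec8, chosen for its rise, separates the groups. The choroid plexus mean is low on knockout replicate 2 and high on the other knockout arrays, and the germ cell means overlap.

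Cycling cell markers, relevant because sister cohesion is set up in dividing cells, had mostly negative changes. Of 11 measured, 0 rose and 1 fell, and 10 had a log2 change below 0, as did 50.9% of all genes, with a median of -0.12. An unadjusted p under 0.05 was found for 7 of the 11, of which 6 were lower in knockout, against 20.4% of all genes in either direction. The groups of 5 lay apart with knockout lower, as for 13.1% of all genes. Their mean was 10.03 to 10.14 in knockout and 10.13 to 10.25 in wild type, overlapping ranges. Cenpf, a kinetochore protein of dividing cells, fell by 0.27 on the log2 scale (limma adjusted p = 0.0132). That call was lost with a prior variance without a trend (adjusted p = 0.0710) and without wild-type replicate 1 (adjusted p = 0.0695). The log2 change of Cenpf was -0.23 without the arrays with Ttr above 10. Pcna, the sliding clamp of replication, had a log2 change of -0.16 (adjusted p = 0.0730) and Mki67, a marker of proliferation, one of -0.14 (adjusted p = 0.132). The median of the 5 mitotic cohesin genes was -0.09, and the part of cycling cells in their values was not tested. Of 7 measured microglia and blood markers 0 passed in limma and 0 had an unadjusted p under 0.05, with a mean of 8.07 to 8.24 in knockout and 8.11 to 8.12 in wild type. Csf1r and P2ry12, receptors of microglia, had log2 changes of 0.11 (adjusted p = 0.326) and -0.17 (adjusted p = 0.460).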

How the data were processed

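The deposited file holds log2 expression values for 41345 probe sets on 6 arrays. RMA and oligo are named, without versions, per the submitters' processing notes, while the sources used here name no array design, build or filter. The labels' protocols give Trizol extraction of total RNA and the GeneChip WT PLUS labelling kit. The deposited log2 values were used with no further normalization. 23521 probe sets had 1 gene symbol in GEO's platform annotation, 1814 had several and 16010 none. Where a gene had several, the brightest by its 6-array mean was kept, which left 22180 genes. Of the probe sets with 1 symbol, 23328 matched the mouse gene table (GRCm38.p6) by Entrez identifier. 2 listed genes were found under an older symbol. That table gave names, neighbours and chromosomes.

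The fit used lmFit and eBayes of limma 3.58.1 (R 4.3.3) with a mean-variance trend and was two-sided, with Benjamini-Hochberg adjustment. Log2 changes are knockout minus wild type. The labels do not tie arrays to separate animals. P-values therefore cover only the spread among these samples, and part of it may be technical. On values simulated for 22180 genes, the fit called 14% of 50 genes raised by 0.3 and 58% of 50 raised by 0.5. It called 92% of 50 raised by 1.4 and 0.0091% of 21980 genes left as they were. The simulated noise was normal and independent between genes, and few genes were raised, whereas 6.67% of genes passed here. These shares may therefore not hold for the deposited values. The members, lists and alternatives were chosen with earlier results of these data known. Besides the cohesin members, genes named are those of each list that passed and the 2 with the smallest p among the rest, the neighbours adjacent to Rec8, the genes most like Rec8, Crebbp, and genes named to describe a list. Tables and plots used Python 3.11.15, pandas 2.3.3 and matplotlib 3.10.9.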

Additional observations from a re-analysis of the deposited data

How the results depend on the processing

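The log2 change of Rec8 ran from 1.17 to 1.48 over the 14 other fits, and from 1.21 to 1.48 with 1 array left out. The other 8 measured members, which had no call, were refitted 111 times in all, and 0 of these fits changed that. Fits with fewer arrays called fewer genes, so for those fits this count says little. It also includes the fit with 1 knockout array, whose calls are not read. At a threshold of 0.1, Stag1 counted as 1 fall. With the replicate number as a block the regulators had 1 rise (Ppp2r5a) and the meiotic recombination list 0 falls, and Rec8 changed by 1.39. The labels give only shared numbers: deviations from the group means correlated by 0.01, 0.03 and -0.13 for replicates 1, 2 and 3. Quantile normalization applied again gave 1 regulator that rose, as did a threshold of 0.1, which also gave 1 synaptonemal complex gene that rose and 1 neighbour of Rec8 in each direction. The recombination list had 0 falls at a threshold of 0.01, with Xist as a covariate and with any 1 array left out. Leaving out 1 array gave 0 to 1 rises among regulators and among neighbours, and 0 to 1 falls in the synaptonemal complex list.

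Over all genes, 604 rose and 875 fell. A prior variance without a trend gave 184 and 310, a threshold of 0.1 gave 1023 rises, a threshold of 0.01 gave 148 and 343, and leaving out the arrays with Ttr above 10 gave 112 and 124. With 1 array left out, 199 to 478 rose and 366 to 800 fell. Leaving out knockout replicate 1 gave 317 rises and 528 falls, wild-type replicate 1 gave 199 and 366, and wild-type replicate 2 gave 309 and 462. The thresholds moved only the cutoff of the same fit. Fits with 1 array left out also have fewer arrays, and the cause of the shifts in the refits was not tested. The other genes of the lists, the neighbours and the genes most like Rec8 were refitted 1926 times. Of these refits 44 lost a call, 15 gained one and 0 turned a called direction. They include the fit with 1 knockout array, whose calls are not read on their own. Other background corrections were not run, since the values are already processed, and 3 arrays a group limit the precision.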
